A study of Danio rerio with 4 samples.

Results

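Neutrophils carry antimicrobial enzymes in granules, which fuse with a vesicle holding a microbe or with the cell surface. Serglycin, a proteoglycan, packs many of the granule proteins of blood cells, and the enzymes range from lysozyme, which cleaves the peptidoglycan of bacterial walls, to a peroxidase that turns hydrogen peroxide into hypochlorous acid. In the zebrafish embryo these transcripts are widely used as marks of neutrophils, and the caudal hematopoietic tissue of the tail lets newly formed blood stem cells multiply. Here 5 genes were followed under the name granule genes, *lyz*, *mpx*, *npsn*, *srgn* and *cpa5*, of 32520 genes counted. *cpa5* is the least settled of them, as it has also been used as a mark of mast cells and has relatives in the pancreas. The 5 were taken by name from the genes that the study listed as changed between the same libraries. Their difference between the genotypes is therefore described below and not tested.

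Tails of *asxl1*-/- embryos were compared with tails of *asxl1*+/+ embryos, all from *asxl1*+/- intercrosses on the AB background and collected untreated at 3 dpf. The mutant lines of the study carry small CRISPR/Cas9 deletions that predict a C-terminally truncated Asxl1 in every cell, and the labels name no line for these libraries. The study states that it shows the line with the larger deletion unless it says otherwise. Each genotype had 2 libraries, labelled A and B, and each library pooled about 20 tails. Whole tails were sequenced, so fewer neutrophils and less RNA in each neutrophil cannot be told apart.

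The *asxl1*-/- libraries held 19423797 and 20027260 counts, and the *asxl1*+/+ libraries 22963847 and 26281738. Values are in CPM, each gene's counts divided by the scaled depth of the library and brought to a common total, with TMM factors from edgeR that lay between 0.990 and 1.01. *asxl1* itself (chromosome 23, 30730121 to 30752553) was at 57.1 and 57.6 CPM in *asxl1*-/- and 65.3 and 65.3 CPM in *asxl1*+/+ libraries A and B. A small deletion leaves the transcript countable, so these counts do not check the genotype. In the lowest library of each, the muscle transcript *actc1b* was at 52230 CPM and the skin keratin *krt5* at 4069 CPM, so both tissues of the tail were present. The labels give only the genotype and a letter, and the pooling of tails is taken from the study's methods. Nothing says that the tails of the libraries came from separate clutches. With 2 libraries against 2 a two-sided exact permutation test cannot give a p below 0.333.

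*lyz* encodes lysozyme C (ENSDARG00000057789, GRCz11 chromosome 24, 24035863 to 24038800). It was at 1.37 and 1.71 CPM in *asxl1*-/- libraries A and B, against 3.81 and 3.92 CPM in *asxl1*+/+ libraries A and B. Both *asxl1*-/- libraries were low and both *asxl1*+/+ libraries were high, with a gap of 2.10 CPM between the groups and nearly the same level in the pair of *asxl1*+/+ pools. The *asxl1*-/- mean was 0.399 of the *asxl1*+/+ mean, and the fitted log2 fold change was -1.32 (standard error 0.22).

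*mpx* encodes the myeloid peroxidase of zebrafish, a relative of mammalian myeloperoxidase (ENSDARG00000019521, chromosome 10, 7778870 to 7785945). The current Ensembl name table calls this gene *EPX*, and the name *mpx* is that of the study. It was at 35.8 and 30.1 CPM in *asxl1*-/- libraries A and B, against 38.3 and 47.2 CPM in *asxl1*+/+ libraries A and B. The groups did not overlap, but *asxl1*-/- A lay closer to *asxl1*+/+ A than the libraries of either genotype lay to each other. *npsn* encodes nephrosin, a metalloprotease of the astacin family (ENSDARG00000010423, chromosome 7, 38653481 to 38659477), and was at 23.4 and 18.8 CPM in *asxl1*-/- libraries A and B, against 26.8 and 28.8 CPM in *asxl1*+/+ libraries A and B. As with *mpx*, the lowest library was *asxl1*-/- B and the highest *asxl1*+/+ B. *srgn* encodes serglycin (ENSDARG00000077069, chromosome 13, 23070581 to 23074454) and was at 12.6 and 12.2 CPM in *asxl1*-/- libraries A and B, against 15.2 and 16.6 CPM in *asxl1*+/+ libraries A and B. The libraries of a genotype were close together for *srgn*, which had the tightest *asxl1*-/- pair of the 5 genes, with an SD of 2.22% of the mean. The fitted log2 fold changes of these 3 genes were close to each other, at -0.38 for *mpx*, -0.40 for *npsn* and -0.36 for *srgn* (standard error 0.12 for each). Of the libraries left out in turn, *asxl1*+/+ B moved that of *mpx* to -0.22 and *asxl1*-/- B moved that of *npsn* to -0.25.

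*cpa5* encodes a carboxypeptidase of the A family, whose members cut single amino acids from the C-terminal end of proteins (ENSDARG00000021339, chromosome 25, 18459924 to 18470695). In zebrafish it has been used as a mark of mast cells, which are granule-bearing blood cells as well, and its close relatives are digestive enzymes of the pancreas. The current Ensembl name table calls this gene *CPA1*, and the name *cpa5* is that of the study. It was at 1.48 and 2.11 CPM in *asxl1*-/- libraries A and B, against 1.99 and 5.46 CPM in *asxl1*+/+ libraries A and B. Here the groups overlapped, since *asxl1*-/- B was above *asxl1*+/+ A, and *asxl1*+/+ B stood far above the other 3 libraries. The *asxl1*-/- mean was 0.482 of the *asxl1*+/+ mean and the fitted log2 fold change was -1.07 (standard error 0.43), but without *asxl1*+/+ B it was -0.15 (standard error 0.34). The difference of *cpa5* between the genotypes therefore rested on 1 library.

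**Figure D1:**
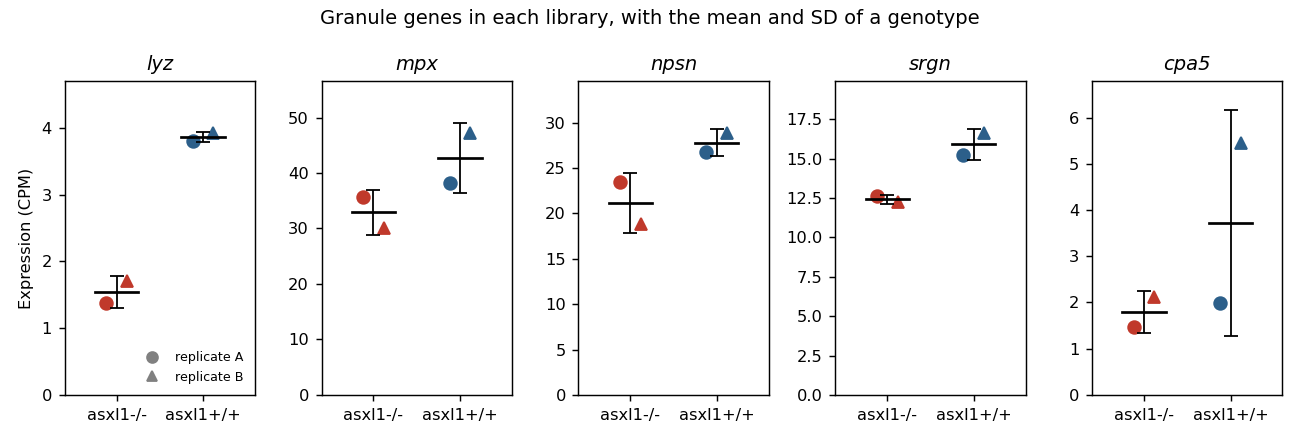
Expression in CPM (linear axes from 0, a panel for each gene) in *asxl1*-/- and *asxl1*+/+ libraries, with replicate A as circles, replicate B as triangles, and black lines for the mean and SD of the 2 libraries. The *asxl1*-/- points lie below both *asxl1*+/+ points for *lyz*, *mpx*, *npsn* and *srgn*, while for *cpa5* the *asxl1*-/- B point at 2.11 CPM lies above the *asxl1*+/+ A point at 1.99 CPM.

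In all, 4 of the 5 genes were lower in both *asxl1*-/- libraries than in both *asxl1*+/+ libraries, a pattern that 14.6% of the 19970 genes tested shared. All 5 passed the filter on low counts. With edgeR's quasi-likelihood test on genotype, 0 of the 5 had an FDR (Benjamini-Hochberg adjusted p) below 0.05, where 0.0601% of all genes tested did. At an unadjusted p below 0.05 the count was 5 of 5, beside 3.08% of all genes tested, and at an FDR below 0.05 edgeR's exact test called 1, *lyz* (0.265% of all genes tested), and DESeq2 called 0 (0.135%). The genes were chosen on this contrast, so nothing was read from these counts.

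The size of the difference was then set side by side within a letter. For *lyz* the CPM ratio, *asxl1*-/- over *asxl1*+/+, was 0.360 for A (95% interval 0.225 to 0.560) and 0.436 for B (0.287 to 0.649). These are exact binomial intervals on the counts, and they cover counting error only. Over all genes, libraries of a letter differed less than libraries of a genotype. Their chi-square values per degree of freedom were 2.93 (A) and 3.08 (B), against 4.62 (*asxl1*-/-) and 6.13 (*asxl1*+/+). The genes were chosen on this contrast, and the labels do not say what libraries of a letter share. Whether an interval holds 1 is therefore a description and not a test. *lyz* was the gene with the lowest ratio of the 5 in A, and it was low in both letters. For *mpx* the ratio was 0.934 for A (0.845 to 1.03) and 0.638 for B (0.578 to 0.704), so that in A the interval held 1. For *npsn* it was 0.876 for A (0.775 to 0.990) and 0.653 for B (0.575 to 0.740), and for *srgn* 0.830 for A (0.702 to 0.979) and 0.736 for B (0.627 to 0.864). *srgn* had the smallest gap between the letters among these 3. For *cpa5* the ratio was 0.740 for A (0.449 to 1.204), an interval that held 1, and 0.387 for B (0.268 to 0.550). In B it was the lowest of the 5, next to *lyz*, and in A its interval held the values of *mpx*, *npsn* and *srgn*.

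**Figure D2:**
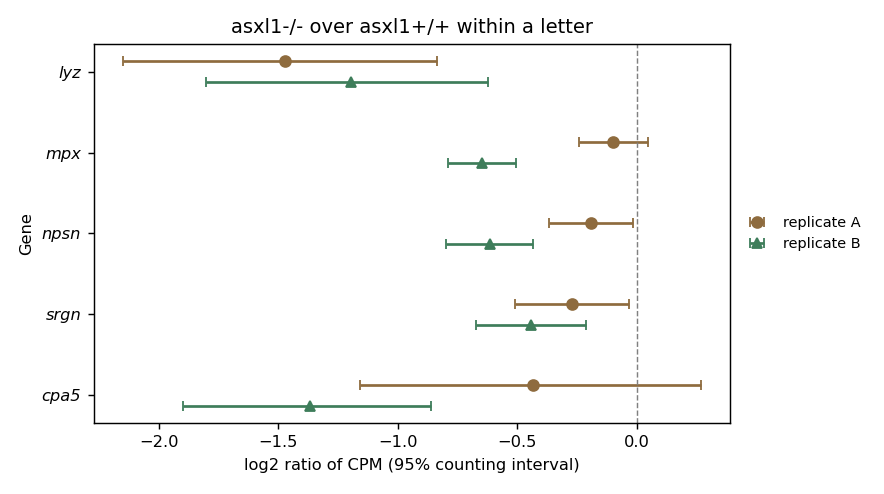
log2 ratio of CPM, *asxl1*-/- over *asxl1*+/+, on the horizontal axis for each gene, with replicate A as circles and replicate B as triangles. Bars are 95% intervals for counting error and are not a test, since the genes were chosen on this contrast. *lyz* lies far below 0 in both letters, and *mpx* in A and *cpa5* in A have intervals that hold 0.

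Counts were also expressed per 100 counts of *mpx* in the same library, which removes any change that the genes share. *lyz* was at 3.84 and 5.69 counts per 100 *mpx* counts in *asxl1*-/- libraries A and B, against 9.95 and 8.31 in *asxl1*+/+ libraries A and B. These values did not overlap between the genotypes. The exact binomial intervals, for counting error only, were 2.51 to 5.64 in *asxl1*-/- A and 7.90 to 12.4 in *asxl1*+/+ A. In B they overlapped, at 3.90 to 8.03 in *asxl1*-/- and 6.72 to 10.2 in *asxl1*+/+. *lyz* and *mpx* were both chosen on the genotype difference, so the lower values of *lyz* relative to *mpx* are a description and not a test. *npsn* was at 65.6 and 62.5 in *asxl1*-/- libraries A and B, against 69.9 and 61.1 in *asxl1*+/+ libraries A and B, and *srgn* at 35.3 and 40.6 in *asxl1*-/-, against 39.7 and 35.2 in *asxl1*+/+. For both genes the genotypes overlapped, and the ratio to *mpx* stayed within a narrow range over the 4 libraries. *cpa5* was at 4.13 and 7.02 in *asxl1*-/- libraries A and B, against 5.20 and 11.6 in *asxl1*+/+ libraries A and B, and the genotypes overlapped as well. Relative to *mpx*, *cpa5* was higher in B than in A in both genotypes.

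The replicates A and B were compared next. The choice of genes did not use this contrast directly, but for *cpa5* the high value of *asxl1*+/+ B enters both. A test on the letter alone also counts the genotype difference as spread, and the genes were chosen for that difference. For *lyz* the standard error on the letter was 0.39, and 0.22 with genotype as a second term. Which of the 5 pass the test on the letter is thus partly set by the choice. In the quasi-likelihood test on the letter, *cpa5* was higher in B by 1.16 on the log2 scale (standard error 0.35), with an FDR of 0.106. Without *asxl1*+/+ B the difference was 0.27 (standard error 0.33), so it rested on that library too. The other 4 genes lay between -0.06 (*npsn*) and 0.13 (*lyz*) on that scale, with FDRs of 0.855 (*mpx*) or more in edgeR. None of the 5 passed an FDR of 0.05 in this test, where 2.79% of all genes tested did, and 1, *cpa5*, had an unadjusted p below 0.05, as did 15.6% of all genes tested. DESeq2 on the letter called 0 of the 5 and 1.29% of all genes tested. With genotype as a second term 8.53% of all genes tested were called, *cpa5* with an FDR of 2.85e-05 in edgeR, and over the settings run, including each library left out, its FDR ranged between 1.04e-05 and 0.990.

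Within a genotype, the CPM ratio of *cpa5*, B over A, was 1.43 in *asxl1*-/- (0.871 to 2.38) and 2.74 in *asxl1*+/+ (1.95 to 3.91), and only the interval of *asxl1*+/+ left out 1. The 2 intervals overlapped, and the difference between the genotypes was not tested. *lyz* had ratios of 1.25 in *asxl1*-/- (0.729 to 2.15) and 1.03 in *asxl1*+/+ (0.766 to 1.38), both with 1 in the interval. *mpx* was lower in B in *asxl1*-/-, with a ratio of 0.841 (0.753 to 0.940), and higher in B in *asxl1*+/+, with a ratio of 1.23 (1.13 to 1.34). *npsn* and *srgn* likewise had ratios below 1 in *asxl1*-/- and above 1 in *asxl1*+/+. Such opposite signs were found in 3 of the 5 genes and in 37.8% of all genes tested.

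**Figure D3:**
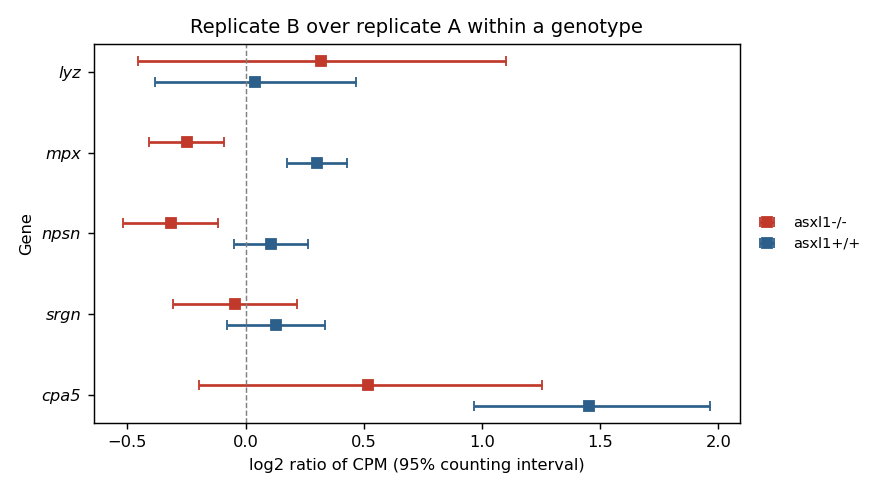
log2 ratio of CPM, replicate B over replicate A, on the horizontal axis for each gene within *asxl1*-/- (upper square) and *asxl1*+/+ (lower square), with 95% intervals for counting error. *cpa5* in *asxl1*+/+ lies farthest from 0, and *mpx* lies below 0 in *asxl1*-/- and above 0 in *asxl1*+/+.

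The levels of the genes were compared per kilobase of exonic length (RPKM), since *lyz* has 603 exonic bases and *mpx* 3754. *npsn* had the highest level of the 5, at 12.9 ± 2.00 RPKM in *asxl1*-/- and 17.0 ± 0.888 RPKM in *asxl1*+/+ (SD, n = 2 each). *mpx* followed at 8.77 ± 1.07 RPKM in *asxl1*-/- and 11.4 ± 1.67 RPKM in *asxl1*+/+, and *srgn* at 6.33 ± 0.141 RPKM in *asxl1*-/- and 8.11 ± 0.504 RPKM in *asxl1*+/+. These 3 genes kept their order in each of the 4 libraries, and neighbours in the order did not overlap within a genotype. *lyz* was at 2.56 ± 0.395 RPKM in *asxl1*-/- and 6.41 ± 0.127 RPKM in *asxl1*+/+, and *cpa5* was lowest at 1.33 ± 0.333 RPKM in *asxl1*-/- and 2.75 ± 1.81 RPKM in *asxl1*+/+. Among the genes tested, mean RPKM placed *npsn* at percentile 86.3 and *cpa5* at percentile 35.2. *lyz* and *cpa5*, with the lowest levels, had between 27 and 142 counts a library, so that their values carried the widest counting error.

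The place of *lyz* in this order depended on which bases could be counted. Of its 603 exonic bases, 414 (68.7%) are shared with exons of *abcc13*, a gene of the ABC transporter family annotated on the same strand, and the authors' counting assigned no pair to more than 1 gene. *abcc13* had 61 and 66 counts in *asxl1*-/- and 70 and 97 counts in *asxl1*+/+ libraries A and B. Per kilobase of the 189 bases that *lyz* shares with no gene, its level was 8.16 ± 1.26 in *asxl1*-/- and 20.5 ± 0.405 in *asxl1*+/+ (CPM per kb, SD, n = 2 each). On that scale both *asxl1*+/+ libraries had more *lyz* than *npsn*, while in *asxl1*-/- libraries *lyz* overlapped *mpx*. The exons of *mpx*, *npsn*, *srgn* and *cpa5* share no base with another gene. A pair that spans shared and unshared bases can be lost too, so neither length gives the exact level of *lyz*. The overlap is the same in every library, and the genotype ratio of *lyz* does not depend on the length used.

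**Figure D4:**
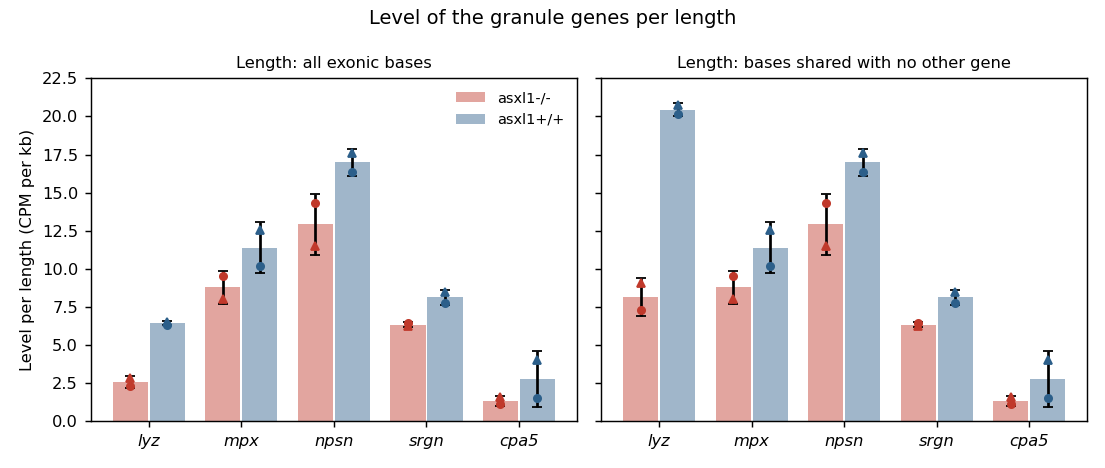
Level in CPM per kb (vertical axis from 0) of the 5 genes in *asxl1*-/- and *asxl1*+/+, as bars for the mean and SD of 2 libraries with circles for replicate A and triangles for replicate B. The left panel uses all exonic bases and the right panel those shared with no other gene, where *lyz* in *asxl1*+/+ is at 20.5 in place of 6.41 CPM per kb.

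The 5 genes were next set beside other transcripts of neutrophils and their precursors, a list with 24 genes found in the table and 23 tested, several of which macrophages also express. Of the 23, 12 had a fitted log2 fold change below 0 and 11 above 0, with a median of -0.03, beside a median of 0.00 over all genes tested. The quasi-likelihood test called 0 of the 23 (0.0601% of all genes tested), as did edgeR's exact test (0.265%) and DESeq2 (0.135%). At an unadjusted p below 0.05 in the quasi-likelihood test the count was 2, both higher in *asxl1*-/-, beside 3.08% of all genes tested. The lowest value of the list was that of *cebp1*, a C/EBP transcription factor of zebrafish myeloid cells, at 1.32 and 0.654 CPM in *asxl1*-/- and 1.73 and 1.61 CPM in *asxl1*+/+ libraries A and B. The most abundant of the list were *pnp5a*, a purine nucleoside phosphorylase, at 291.7 and 180.9 CPM in *asxl1*-/- and 273.1 and 155.4 CPM in *asxl1*+/+, and *padi2*, a peptidylarginine deiminase, at 157.6 and 145.1 CPM in *asxl1*-/- and 127.6 and 135.1 CPM in *asxl1*+/+. *pnp5a* overlapped between the genotypes and *padi2* did not, with the higher values in *asxl1*-/-. Both were above *mpx* in every library, and which cells gave their RNA was not tested. Of the 23, 6 were lower in both *asxl1*-/- libraries than in both *asxl1*+/+ libraries, *cebp1* among them, beside 14.6% of all genes tested. Another 4, with *padi2*, were higher in both. The share of all genes tested that were higher in both was not counted, so nothing was read from this number. The collagenase gene *mmp13a* had the largest value in the other direction, at 3.36 and 5.33 CPM in *asxl1*-/- and 2.25 and 3.27 CPM in *asxl1*+/+ libraries A and B. The granule genes were chosen as changed in these libraries. This list was written with earlier results of these data known, and the study names its *mmp13a* as raised in the mutants. The 2 sets are therefore not compared. Without *asxl1*+/+ B, the median difference of mean log2 CPM (prior count 2) over the 23 genes was -0.09.

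Markers of other cells of the tail were read in the same way, with 0 of the genes of each list called by the quasi-likelihood test, edgeR's exact test or DESeq2. Of all genes tested, these called 0.0601%, 0.265% and 0.135%. In the quasi-likelihood test 3.08% of all genes tested had an unadjusted p below 0.05. Of 12 macrophage markers listed, 7 were found, and none of *mpeg1.1*, *mpeg1.2* and *mfap4* was matched to a single gene. Of the 7, only *marco*, *csf1ra* and *irf8* were tested, none at an unadjusted p below 0.05, with fold changes between 0.07 and 0.28. *csf1ra*, the receptor of a macrophage growth factor, was at 33.5 and 33.3 CPM in *asxl1*-/- and 29.9 and 33.8 CPM in *asxl1*+/+. The complement gene *c1qc* and *cd74a* were among those near 0, with at most 3 counts in a library. Erythroid markers had fold changes between -0.12 and 0.33 over 6 genes, none at an unadjusted p below 0.05. Of 4 skin keratins, 3 had an unadjusted p below 0.05, all lower in *asxl1*-/-, beside 3.08% of all genes tested. *krt5* was at 4599 and 4069 CPM in *asxl1*-/- and 5872 and 5319 CPM in *asxl1*+/+ libraries A and B. The fold changes of the keratins lay between -0.37 (*krt5*, standard error 0.06) and -0.01 (*krt4*). Those of *mpx*, *npsn* and *srgn* were -0.38, -0.40 and -0.36. Of 3 muscle genes, 1 had an unadjusted p below 0.05, and their fold changes lay between -0.11 and -0.02. The part of RNA from these cells in the values of the granule genes was not tested.

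For *cpa5* the marks of mast cells and of the pancreas were looked at. Of the mast cell list, *fcer1g* and *fcer1gl*, which encode chains of the Fc receptor of mast cells in mammals, were tested besides *cpa5*. *fcer1g* had 22 and 13 counts in *asxl1*-/- and 16 and 17 counts in *asxl1*+/+ libraries A and B, and *fcer1gl* had 88 and 69 counts in *asxl1*-/- and 80 and 95 counts in *asxl1*+/+. Both genes had their highest CPM in *asxl1*-/- A. *prss59.1*, a serine protease gene that is on the pancreatic list as well, did not pass the filter on low counts and had 0 and 3 counts in *asxl1*-/- and 7 and 64 counts in *asxl1*+/+ libraries A and B, so that *asxl1*+/+ B stood apart as it did for *cpa5*. *eslec*, the other gene of the list found, had at most 3 counts in a library.

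Pancreatic digestive enzymes showed another picture, with 25 genes found and 12 tested. Their summed level was 6.21 and 5.48 CPM in *asxl1*-/- libraries A and B, against 17.5 and 46.2 CPM in *asxl1*+/+ libraries A and B. *asxl1*+/+ B was the highest library for 11 of the 12, as for *cpa5*, while 25.7% of all genes tested had their highest CPM there. All 12 were lower in both *asxl1*-/- libraries than in both *asxl1*+/+ libraries, with a median log2 fold change of -2.71. Of all genes tested, 14.6% were lower in this way. The filter keeps a gene that is high enough in a single genotype, as *ctrb1* and *cela1.6* were in *asxl1*+/+. The direction, the median, the highest library and the calls that follow were thus partly set by the filter. The list was also written with earlier results of these data known, so nothing was read from the number called. The quasi-likelihood test called 0 of the 12 (0.0601% of all genes tested), with 11 at an unadjusted p below 0.05 (3.08%). The exact test of edgeR called 7 (0.265%) and DESeq2 called 3 (0.135%). The trypsin gene *prss1* had 12 and 5 counts in *asxl1*-/- and 46 and 187 counts in *asxl1*+/+ libraries A and B. The chymotrypsin gene *ctrb1* had 0 and 0 counts in *asxl1*-/-, which allows up to 3 counts a library, and 31 and 138 counts in *asxl1*+/+. The elastase gene *cela1.6* had 1 and 0 counts in *asxl1*-/- and 30 and 96 counts in *asxl1*+/+. Other enzymes were well above 0 in *asxl1*-/-, as *cpb1* with 50 and 45 counts in *asxl1*-/- and 75 and 124 counts in *asxl1*+/+ libraries A and B, beside 29 and 42 counts of *cpa5* in *asxl1*-/- and 46 and 142 in *asxl1*+/+.

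In *asxl1*+/+ the summed enzymes had a ratio, B over A, of 2.64 (2.36 to 2.96), a value within the interval of *cpa5* (1.95 to 3.91) and above the intervals of *lyz*, *mpx*, *npsn* and *srgn*. In *asxl1*-/- their ratio, B over A, was 0.884 (0.676 to 1.15), and that of *cpa5* was 1.43 (0.871 to 2.38). Within a letter, *asxl1*-/- over *asxl1*+/+, the enzymes were at 0.355 for A (0.287 to 0.435) and 0.119 for B (0.0967 to 0.145). Both values lay below the intervals of *cpa5*, 0.449 to 1.204 for A and 0.268 to 0.550 for B. Single enzymes differed widely from this sum, and the fitted log2 fold changes of *cpb1* (-0.74) and *amy2al1* (-0.61) were smaller in size than that of *cpa5*. The part of pancreatic RNA in the level of *cpa5* was not tested.

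The relatives of *cpa5* did not move together. *cpb1*, a carboxypeptidase B gene of the pancreas, was at 2.54 and 2.26 CPM in *asxl1*-/- and 3.25 and 4.77 CPM in *asxl1*+/+ libraries A and B, and was also highest in *asxl1*+/+ B. *cpa1*, 5908 bases from *cpa5* on the same strand, had 0 and 0 counts in *asxl1*-/- and 0 and 11 counts in *asxl1*+/+, so that all its counts were in *asxl1*+/+ B. The current Ensembl name table gives *cpa1* and *cpa5* the same name, *CPA1*. *cpa6* was at 12.5 and 13.1 CPM in *asxl1*-/-, against 11.3 and 9.41 CPM in *asxl1*+/+ libraries A and B, with the higher values in *asxl1*-/-. *cpb2* was at 6.21 and 6.74 CPM in *asxl1*-/- and 4.94 and 6.30 CPM in *asxl1*+/+, *cpm* at 11.2 and 12.3 CPM in *asxl1*-/- and 13.3 and 13.3 CPM in *asxl1*+/+. Neither had *asxl1*+/+ B standing apart. The quasi-likelihood test, the exact test and DESeq2 called 0 of the 4 relatives tested (0.0601%, 0.265% and 0.135% of all genes tested). In the quasi-likelihood test 2 had an unadjusted p below 0.05, 1 lower and 1 higher in *asxl1*-/-, beside 3.08% of all genes tested.

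**Figure D5:**
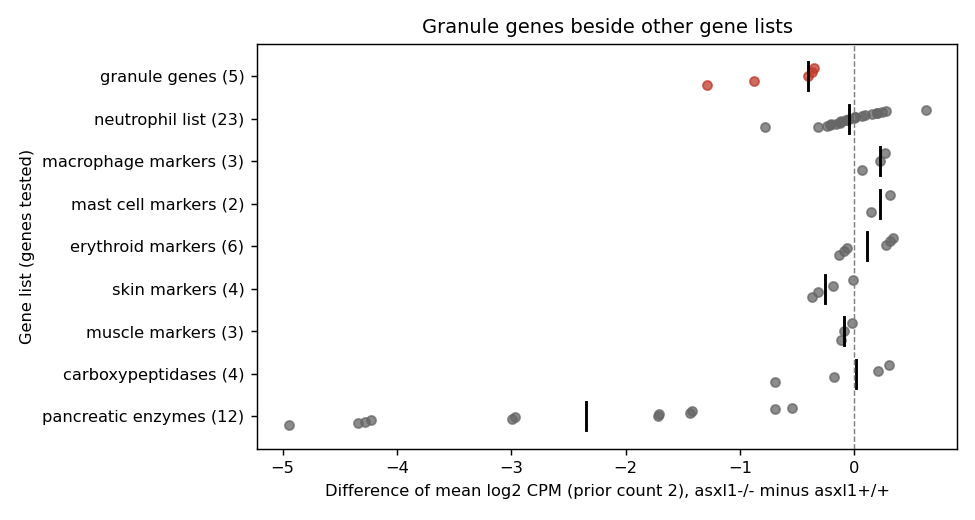
Difference of mean log2 CPM (prior count 2), *asxl1*-/- minus *asxl1*+/+, on the horizontal axis for the 5 granule genes (red) and for the genes tested of each other list (grey), 1 point a gene, with black bars at the medians. The granule genes were chosen on this contrast and all lie below 0, so they are not compared with the neutrophil list, which is spread around 0. The 12 pancreatic enzymes, some kept by the filter through *asxl1*+/+ alone, reach the lowest values.

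The patterns over the 4 libraries were last compared by the distance between log2 CPM values centred on each gene's own mean, where 0 means the same pattern in direction and size. *mpx* and *npsn* were 0.15 apart, *mpx* and *srgn* 0.19, and *npsn* and *srgn* 0.20. *lyz* was at least 0.96 from each of the other 4 genes, and *cpa5* at least 1.06. The distance is not scaled by the size of a gene's differences, so that of *lyz* largely restates its larger difference between the genotypes. Among the 19029 named genes tested, those nearest to *lyz* were *gcga* (0.17), *lca5* (0.21) and *rhcgl1* (0.23), and those nearest to *mpx* were *DNAJC24* (0.02), *GPC3* (0.05) and *SLC7A10* (0.05). Those nearest to *npsn* were *GADD45G* (0.03), *si:dkey-152b24.7* (0.04) and *IGSF11* (0.04), and those nearest to *srgn* were *gstp1* (0.02), *L3MBTL1* (0.02) and *spi1a* (0.03). *spi1a* is a member of the Spi transcription factor family and had 40 and 40 counts in *asxl1*-/- and 58 and 70 counts in *asxl1*+/+ libraries A and B. For *cpa5* the nearest were *zgc:110699* (0.33), *si:dkey-22f5.9* (0.38) and *ptgr1.2* (0.39). With 4 libraries, near patterns are found among many genes, and several of these had under 50 counts a library.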

How the data were processed

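Tails at 3 dpf were sequenced in 4 libraries, 2 *asxl1*-/- and 2 *asxl1*+/+. The authors aligned the pairs with STAR (GRCz11), ran featureCounts 1.6.4 on the exons of Ensembl release 96, unstranded and leaving out pairs that fell on several genes, and deposited raw counts of 32520 genes with exon positions and exonic length. Paired counting was stated in the header, and how the reads were trimmed is not given in the sources used here. A table of names from Ensembl gave 29201 of the identifiers a name, and the study's gene list named 294. The members and lists were chosen with earlier results of these data known, and 1 gene list is not reported here.

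Counts were analysed with edgeR 4.0.16 in R 4.3.3. filterByExpr by genotype kept 19970 genes, and TMM factors scaled the totals. The quasi-likelihood test was run on genotype and, separately, on the replicate letter, with Benjamini-Hochberg adjustment and an FDR of 0.05. The study's methods name edgeR's exact test, an alternative here. Further alternatives were DESeq2 1.42.0 without independent filtering, no TMM factors, no filter, a minimum of 10 counts in each library, a threshold of 0.01, the letter as a block, and each library left out in turn. The unshared length, and leaving out libraries for levels and lists, were chosen after seeing the data. RPKM divides CPM by exonic length in kilobases. Ratios have 95% exact binomial intervals. Named list genes are the 2 with the highest mean CPM and the 2 with the largest absolute fold change, any gene of the pancreatic and carboxypeptidase lists, and the 3 named genes nearest in pattern to each member. *fcer1g*, *fcer1gl*, *eslec*, *prss59.1*, *c1qc* and *cd74a* were named from the cell type marker lists, and *prss59.1* is on the pancreatic list as well. The libraries differed by more than counting noise, so none was taken for a resequenced copy. This does not show that libraries A and B came from separate pools of tails. Chi-square values per degree of freedom were 4.62 for the *asxl1*-/- libraries and 6.13 for the *asxl1*+/+ libraries, and between same-letter libraries smaller, 2.93 (A) and 3.08 (B). Each p-value sets a difference against the spread between these pools, estimated with dispersions shared over genes, and does not reach beyond these pools. The fits were tested on simulated counts. Tables and plots used Python with pandas, SciPy and matplotlib.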

Additional observations from a re-analysis of the deposited data

Results flagged for a closer look

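The difference between replicates B and A had opposite signs in the 2 genotypes for 3 of the 5 genes, as it had for 37.8% of all genes tested. For *mpx* the log2 ratio, B over A, was -0.25 in *asxl1*-/- and 0.30 in *asxl1*+/+, a difference of -0.55. For *npsn* it was -0.32 in *asxl1*-/- and 0.11 in *asxl1*+/+, a difference of -0.42. For *srgn* it was -0.05 in *asxl1*-/- and 0.13 in *asxl1*+/+, a difference of -0.17. The differences between the genotypes were not tested, since 1 library of each genotype and letter leaves no replicate for them.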

How the results depend on the processing

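The number of genes called on genotype was 12, and it was 53 with edgeR's exact test, 27 with DESeq2, 19 with no filter, 2 at an FDR of 0.01 and between 9 and 80 with each library left out, with 67 without *asxl1*-/- A and 80 without *asxl1*-/- B. The labels do not say what libraries of a letter share, and deviations from the genotype means correlated at 0.27 between libraries of a letter. With the letter as a replicate block, 301 genes (1.51%) were called, all 5 granule genes among them, and 275 without a filter. The number called on the letter was 558, and it was 1703 with genotype as a second term, 258 with DESeq2, 1084 with no filter, 247 at an FDR of 0.01 and between 234 and 523 with each library left out, with 251 without *asxl1*-/- A, 234 without *asxl1*+/+ A and 247 without *asxl1*+/+ B. Log2 fold changes on genotype kept their sign in every setting. With each library left out they lay between -1.49 and -1.17 for *lyz*, -0.52 and -0.22 for *mpx*, -0.56 and -0.25 for *npsn*, -0.42 and -0.29 for *srgn*, and -1.60 and -0.15 for *cpa5*, the last without *asxl1*+/+ B. Log2 differences, B over A, then lay between -0.63 and 1.08 for *lyz*, -0.30 and 0.35 for *mpx*, -0.42 and 0.20 for *npsn*, -0.19 and 0.25 for *srgn*, and 0.27 (without *asxl1*+/+ B) and 1.64 for *cpa5*. That of *mpx* passed an FDR of 0.05 without *asxl1*-/- B, as did that of *cpa5*, and *cpa5* also did at 1.13 with genotype as a second term and at 1.16 with no filter. The cause was not tested. In level, *npsn*, *mpx*, *srgn*, *lyz* and *cpa5* were in places 1, 2, 3, 4 and 5 per kilobase. With no length, *mpx* was in place 1, *npsn* 2, *cpa5* 4 and *lyz* 5, and with the unshared length *lyz* was in place 2, *mpx* 3 and *srgn* 4. The median of the carboxypeptidase list was 0.02, and -0.00054 without *asxl1*+/+ B. Depth limits *lyz* and *cpa5* most, and the number of libraries limits every comparison.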
